A study of Mus musculus with 17 samples.

Results

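A set of 10 genes that adipocytes use was followed through lung libraries from irradiated and non-irradiated mice: Adipoq, Lep, Retn, Cfd, Plin1, Cidec, Car3, Aqp7, Adig and Ucp1. These are 10 of the 45777 genes in the count table and were taken from it by their symbols. The members had been selected on their counts per library and group in these same data, where their levels differed widely between libraries, so their values are given as a description, and no member is tested or called. The study irradiated the left lung of mice with a focal beam to model radiation-induced lung injury and sequenced RNA from lung. By its methods the RNA of irradiated lungs came from their lesions, and the part of control lungs taken is not stated. Irradiation and the piece of lung taken therefore cannot be told apart.

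Every mouse was a male wild-type C57BL/6 animal that was 6 weeks old on arrival and was kept for a week before irradiation. The controls received no irradiation, and the other groups received 65 Gy or 75 Gy in a single fraction. Lungs were collected after 2 or 6 weeks. Each of the 6 groups had 3 libraries, except 65 Gy at 6 weeks with 2. Total counts lay between 46764569 and 66797879 per library, with a median of 57608149, so that 3 counts corresponded to 0.0449 to 0.0642 counts per 1000000 counts (CPM). The 6 lung marker genes (Sftpc, Sftpb, Sftpa1, Scgb1a1, Ager, Hopx) summed to between 20429 and 45085 CPM, and all 6 were detected in every group. Libraries are named here by the number in their labels. Library 3129, from the 65 Gy group at 2 weeks, stood apart from the others in many of the genes described here. Fold changes printed for the members that rest on it are given with and without it. Spreads within groups and correlations between members are given with it only. The labels did not state that libraries of a group came from separate animals, so p-values below measure the spread between these libraries only.

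White adipocytes store triglyceride in a lipid droplet coated by perilipin and CIDE proteins and release hormones called adipokines into the blood. Brown adipocytes burn lipid for heat through the mitochondrial uncoupling protein that Ucp1 encodes. The transcription factors PPARG and C/EBP-alpha drive the adipocyte programme. Lung parenchyma is not a fat depot, but adipose tissue lies around the hilum, the mediastinum and the pericardium. The labels name lung as the tissue and say nothing of fat. In bulk RNA, fewer cells of a type and less RNA per cell cannot be told apart.

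To show the sequence from which these genes are transcribed, promoters are printed for Adipoq, whose level is the reference for the other members below, and for Lep and Cidec, which held a C/EBP motif. Of the 10 members, 9 had a promoter in the RefSeq table of GRCm38.p6, with 11 promoters among them. The motif TTNNGCAA, searched on both strands, lay in the 250 bases before the start of 3 of these 9 genes, Lep, Plin1 and Cidec, and in 9.56% of 32851 promoters of that length. The direct repeat AGGNCANAGGNCA, bound by PPARG with its partner RXR, lay in none of the 9 and in 0.338% of all. Capitals mark the C/EBP motif, and each sequence runs 5′ to 3′ up to the base before the start. For Cidec the promoter that holds the motif is shown, and its window lies wholly inside the gene as placed below, before an inner start. Plin1 is not printed, because part of its window lies in the first exon of other annotated transcripts of the gene.
Adipoq, chr16:23146286-23146535, + strand: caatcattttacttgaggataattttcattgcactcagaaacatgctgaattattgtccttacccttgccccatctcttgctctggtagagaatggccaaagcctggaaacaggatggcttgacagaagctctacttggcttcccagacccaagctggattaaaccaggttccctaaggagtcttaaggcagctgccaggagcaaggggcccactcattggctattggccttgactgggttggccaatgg
Lep, chr6:29059971-29060220, + strand: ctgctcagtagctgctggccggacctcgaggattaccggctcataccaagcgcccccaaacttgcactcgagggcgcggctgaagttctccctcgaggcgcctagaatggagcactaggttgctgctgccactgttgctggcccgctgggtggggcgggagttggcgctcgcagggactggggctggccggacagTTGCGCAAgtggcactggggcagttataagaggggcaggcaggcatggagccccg
Cidec, chr6:113434765-113435014, - strand: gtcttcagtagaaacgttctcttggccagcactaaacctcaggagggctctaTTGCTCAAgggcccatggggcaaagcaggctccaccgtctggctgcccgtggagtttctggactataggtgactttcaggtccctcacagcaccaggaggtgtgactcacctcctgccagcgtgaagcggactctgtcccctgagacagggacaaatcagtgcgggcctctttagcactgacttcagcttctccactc
The motif began 55 bases before the start in Lep, 187 and 58 bases before it in Plin1, and 198 bases before it in Cidec. A match is a match of letters only.

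Adipoq (chr16:23146536-23157968, + strand, GRCm38.p6) encodes adiponectin, a hormone that fat cells secrete. In the 2-week controls its level was 6.21, 4.52 and 5.95 CPM. At 65 Gy and 2 weeks it was 10.5 CPM in library 3129, 0.523 in 3130 and 0.695 in 3131. At 75 Gy and 2 weeks it was 0.333, 1.48 and 0.334 CPM. The 75 Gy libraries all lay below the controls, whereas the 65 Gy group held the highest Adipoq value of the series beside values close to the lowest. The 6-week controls split in the same way, with 0.730 CPM in library 3135, 0.998 in 3136 and 6.11 in 3137. The 65 Gy libraries of 6 weeks had 2.39 and 3.33 CPM, and those of 75 Gy had 6.17, 4.85 and 6.63 CPM. Thus Adipoq varied 31.6-fold over the series, and the highest library of the 6-week controls overlapped the 75 Gy group.

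**Figure D1:**
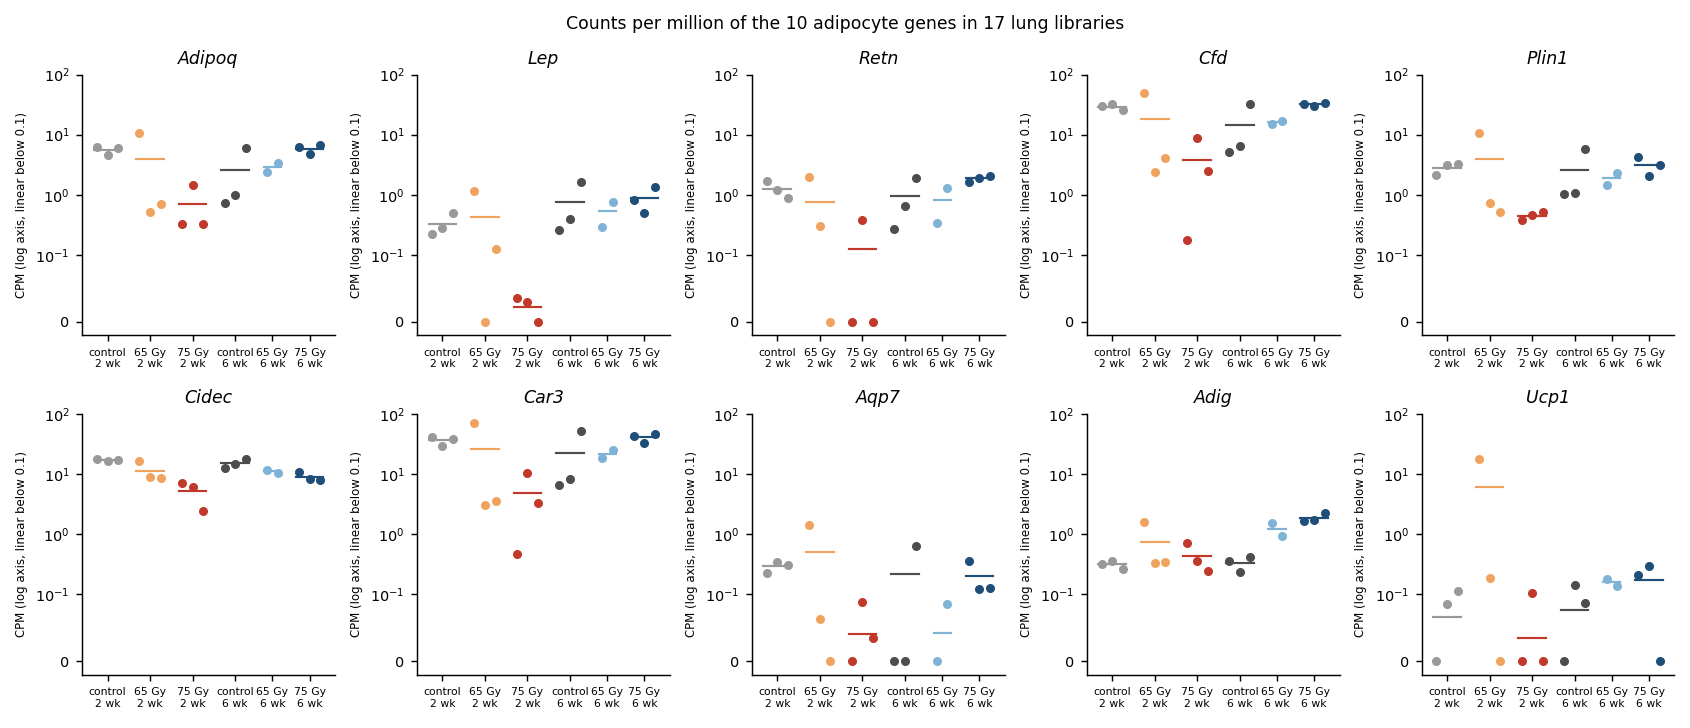
Level of each of the 10 adipocyte genes in CPM (y axis, logarithmic above 0.1 CPM and linear below) in the 17 libraries by dose and time (x axis); points are libraries and horizontal lines are group means. Adipoq, Retn, Cfd, Plin1 and Car3 show a single high library, 3129, at 65 Gy and 2 weeks and a single high library, 3137, among the 6-week controls, while Cidec and Adig are spread less.

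Cfd (chr10:79890853-79892655, + strand) encodes adipsin, or complement factor D, the protease that activates the alternative complement pathway. Its level was 29.5, 32.3 and 25.7 CPM in the 2-week controls, 48.6, 2.41 and 4.02 CPM at 65 Gy, and 0.175, 8.82 and 2.53 CPM at 75 Gy. At 6 weeks it was 5.08, 6.53 and 32.6 CPM in the controls, 15.2 and 16.7 CPM at 65 Gy, and 32.2, 30.3 and 33.5 CPM at 75 Gy. Library 3129 was again the highest of the series, library 3137 the highest of its group, and library 3132 the lowest of the series. Between these libraries Cfd varied 278-fold in CPM.

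Car3 (chr3:14863538-14872381, + strand) encodes carbonic anhydrase 3, which is abundant in fat and in slow skeletal muscle. Its level was 40.5, 29.6 and 38.7 CPM in the 2-week controls, 71.04, 3.0 and 3.6 CPM at 65 Gy, and 0.473, 10.6 and 3.27 CPM at 75 Gy. In the later groups it was 6.45, 8.25 and 51.1 CPM in the controls, 18.4 and 25.0 CPM at 65 Gy, and 42.1, 32.4 and 46.9 CPM at 75 Gy. The order of the libraries was close to that of Cfd, and Car3 varied 150-fold. Car3 overlaps Gm41999, which had 0 counts in every library.

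The hormones Lep and Retn were lower in level. Lep (chr6:29060221-29073876, + strand) encodes leptin, which signals fat stores to the brain. It was 0.223, 0.278 and 0.496 CPM in the 2-week controls, 1.15, 0 and 0.125 CPM at 65 Gy, and 0.0350, 0.0296 and 0 CPM at 75 Gy, which came from 2, 2 and 0 counts. After 6 weeks it was 0.260, 0.392 and 1.61 CPM in the controls, 0.297 and 0.768 CPM at 65 Gy, and 0.820, 0.495 and 1.35 CPM at 75 Gy. The highest library was 3137, a control, and not 3129. Retn (chr8:3655770-3659818, + strand) encodes resistin, a hormone that opposes insulin in mice. It was 1.68, 1.2 and 0.896 CPM in the 2-week controls, 2.02, 0.301 and 0 CPM at 65 Gy, and 0, 0.384 and 0 CPM at 75 Gy. After 6 weeks it was 0.276, 0.642 and 1.92 CPM in the controls, 0.346 and 1.30 CPM at 65 Gy, and 1.64, 1.93 and 2.08 CPM at 75 Gy. Retn therefore had no count in 3 libraries, all of them irradiated and of 2 weeks.

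Plin1 (chr7:79721164-79732904, - strand) encodes perilipin 1, which coats the lipid droplet and controls access of lipases. It was 2.15, 3.08 and 3.26 CPM in the 2-week controls, 10.7, 0.745 and 0.516 CPM at 65 Gy, and 0.385, 0.458 and 0.510 CPM at 75 Gy. By 6 weeks it was 1.02, 1.07 and 5.80 CPM in the controls, 1.47 and 2.30 CPM at 65 Gy, and 4.33, 2.05 and 3.20 CPM at 75 Gy. The 75 Gy libraries of 2 weeks were the 3 lowest of the series. Aqp7 (chr4:41033074-41048237, - strand) encodes the channel through which glycerol leaves the adipocyte. It had 89 counts in library 3129, 37 in 3137 and at most 22 in any other, with 0 counts in 5 libraries.

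Cidec (chr6:113424634-113435760, - strand) encodes a protein that fuses lipid droplets into larger ones, and it followed another pattern. Its level was 17.5, 16.2 and 17.1 CPM in the 2-week controls, 16.5, 8.94 and 8.44 CPM at 65 Gy, and 7.13, 6.16 and 2.39 CPM at 75 Gy. By 6 weeks it was 12.6, 14.7 and 17.9 CPM in the controls, 11.8 and 10.5 CPM at 65 Gy, and 10.9, 8.32 and 7.91 CPM at 75 Gy. Both irradiated groups of 6 weeks lay below all controls of that time, and library 3129 lay within the range of the controls. Cidec overlaps Gm52871, for which no value was used here, and the use of strand in counting was not given in the sources used here.

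Adig (chr2:158502612-158508198, + strand) encodes adipogenin, a small membrane protein of adipocytes, and it too stood apart. It was 0.325, 0.364 and 0.267 CPM in the 2-week controls, 1.57, 0.333 and 0.338 CPM at 65 Gy, and 0.718, 0.355 and 0.246 CPM at 75 Gy. At 6 weeks it was 0.357, 0.232 and 0.419 CPM in the controls, 1.53 and 0.939 CPM at 65 Gy, and 1.67, 1.70 and 2.25 CPM at 75 Gy. All irradiated libraries of 6 weeks lay above all controls, including library 3137, in which Adipoq was as high as in the 75 Gy group.

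Ucp1 (chr8:83290348-83298456, + strand) was found almost wholly in library 3129. It had 1117 counts there (exact Poisson 95% interval 1052 to 1184, counting error only), or 18.0 CPM, and 92.5% of all 1208 counts of the series. No other library had more than 17 counts, and 6 had 0. The 2 other libraries of the same group had 12 and 0 counts. On a scale of CPM per kilobase of exon, the median level over libraries was highest for Cfd (18.2), followed by Car3 (14.9), Cidec (6.20) and Adipoq (2.58), and the other 6 members had medians of at most 0.576. In library 3129 alone Ucp1 reached 11.02 CPM per kilobase.

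How closely the members moved together was described by the ratio of their counts to those of Adipoq in the same library, which is independent of sequencing depth. For Car3 the ratio lay between 5.18 and 9.79 in 16 of 17 libraries, although Adipoq itself varied 31.6-fold, and for Cfd it lay between 4.33 and 7.58 in the same 16 libraries. Library 3132, at 75 Gy and 2 weeks, was the exception, with 10 Cfd and 27 Car3 counts beside 19 Adipoq counts. Its ratios were 0.526 for Cfd (exact 95% interval 0.219 to 1.19) and 1.42 for Car3 (0.761 to 2.70). Library 3134 of the same group had the same 19 Adipoq counts with 144 Cfd counts (ratio 7.58, interval 4.68 to 12.96), and the intervals of these libraries did not overlap. Intervals cover counting error only. The ratio of Plin1 was looser, from 0.310 to 1.53. For Cidec the ratio ran from 1.19 to 21.4, a range of 18.0-fold, and was above 12 in libraries 3130, 3131, 3132, 3135 and 3136, all with less than 1 CPM of Adipoq. Library 3134, with 0.334 CPM of Adipoq, had a ratio of 7.16 (4.41 to 12.3). Since Adipoq is the divisor, a ratio rises where Adipoq falls and the other gene does not. For Adig it ran from 0.0449 to 2.16. Without library 3132 the ratio ranged 1.75-fold for Cfd and 1.89-fold for Car3, beside 14.5-fold for Cidec and 16.4-fold for Adig. The Cfd ratio still differed beyond counting error within the 2-week controls, at 7.16 (6.19 to 8.30) in 3127 and 4.33 (3.82 to 4.91) in 3128.

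**Figure D2:**
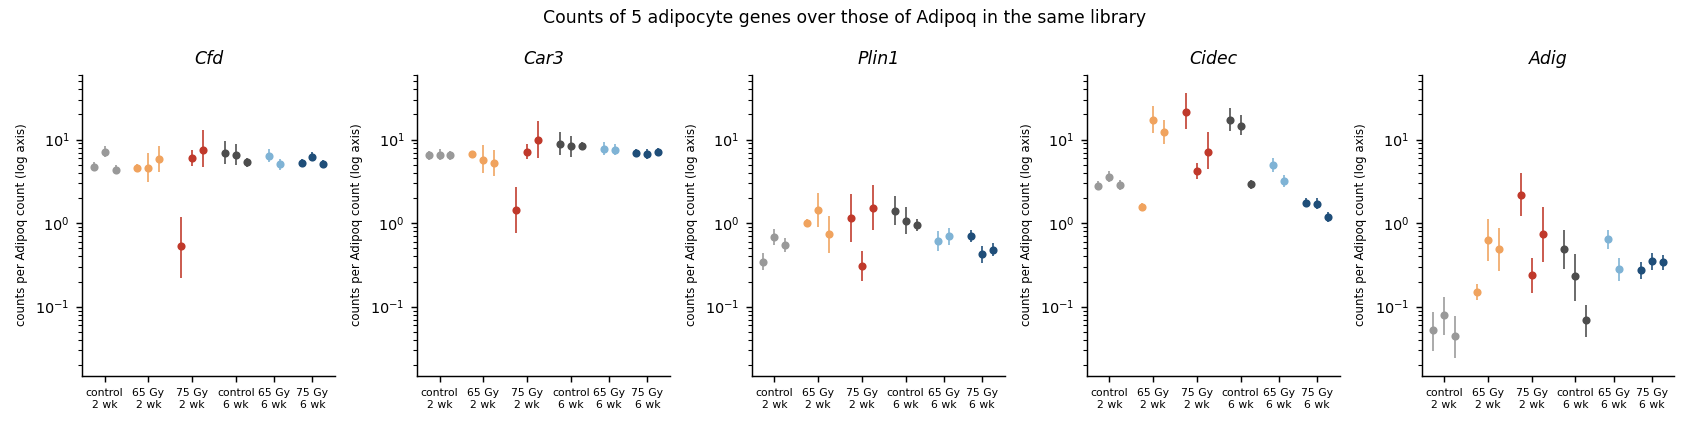
Counts of 5 adipocyte genes divided by the Adipoq counts of the same library (y axis, logarithmic) in the 17 libraries by dose and time (x axis); bars are exact 95% intervals for counting error. The ratios of Cfd and Car3 are nearly level except in library 3132, where they fall to 0.526 and 1.42, while that of Cidec is above 12 in 5 of the 6 libraries with less than 1 CPM of Adipoq and 7.16 in the other, 3134.

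The spread within groups restates what the members were chosen on and is given as a description. The SD of log2 CPM within groups was 1.33 for Adipoq, 1.65 for Cfd, 1.61 for Car3 and 2.29 for Ucp1, whereas it was 0.45 for Cidec and 0.66 for Adig, and the median over all 22052 genes tested was 0.24. Correlations over 17 libraries, after the mean of its own group was taken from each value, were 0.92 between Adipoq and Car3 and 0.98 between Cfd and Car3. They were 0.31 between Car3 and Cidec and 0.39 between Car3 and Adig. With Adipoq the correlations were higher, at 0.61 for Cidec and 0.62 for Adig, and between Cidec and Adig the value was 0.71. The points share their libraries and depth, and library 3129 is in every pair.

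Irradiated groups were then compared with the controls of the same time, with 1 model over all libraries (edgeR, quasi-likelihood). Genes outside the members were called where they had an adjusted p (Benjamini-Hochberg) no higher than 0.05 and differed by 1 or more on the log2 scale, in either direction. For the members the fold changes are given without a call, and nothing is read from how many of them lay apart from the controls. After 75 Gy and 2 weeks, 9 of 10 members were lower than in controls, by a median of -2.80 on the log2 scale, while the median of all genes was 0.00. The log2 fold change was -2.93 ± 1.03 (SE) for Adipoq, -2.91 ± 1.09 for Cfd, -2.91 ± 1.14 for Car3 and -2.64 ± 0.97 for Plin1. It was -1.69 ± 0.32 for Cidec, 0.46 ± 0.57 for Adig and -3.80 ± 1.46 for Lep, the last from 4 counts in 3 irradiated libraries. Library 3133 was the highest of its group in Adipoq, Cfd and Car3, and without it these became -4.05, -4.43 and -4.27 and the median of the members -4.07. For Retn, at -3.19 ± 1.26, the other libraries of the group had 0 counts, so no value without 3133 is given. The CPM of 8 of 10 members did not overlap between the groups and was lower after irradiation, as it was for 14.8% of all genes. The differences of Adipoq, Cfd and Car3 were larger than that of Cidec, but their SEs were above 1 beside 0.32.

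After 65 Gy and 2 weeks the median of the members was -0.07, and their values depended on library 3129. Adipoq changed by -0.50 ± 0.93 with it and by -3.19 without it. Without library 3129 the values were -3.18 for Cfd, -3.46 for Car3 and -2.16 for Plin1, in place of -0.67, -0.49 and 0.49. Adig changed from 1.23 to 0.08 and Ucp1 from 6.45 to 0.52. The median of the members without library 3129 was -2.72, with 8 of 10 lower than in controls in place of 5 of 10.

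**Figure D3:**
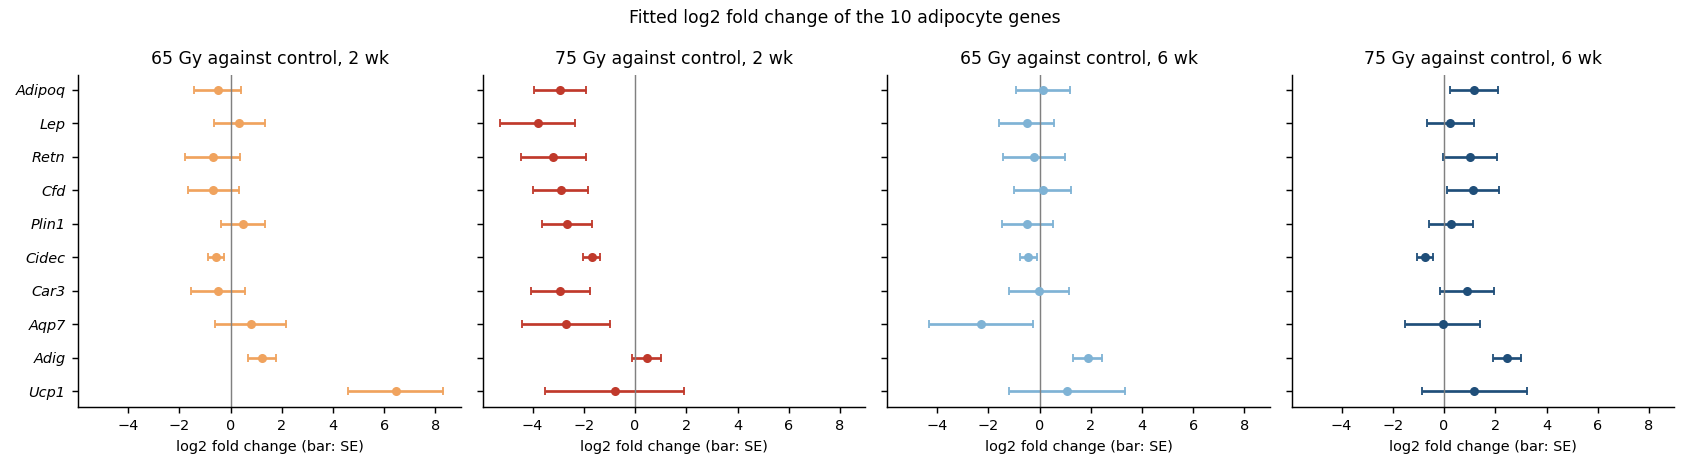
Fitted log2 fold change against the controls of the same time (x axis; bars are SE) for the 10 adipocyte genes (y axis) in the 4 irradiated groups. At 75 Gy and 2 weeks all except Adig lie below 0, and at 6 weeks Adig lies above 0 at both doses.

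At 6 weeks the members divided. After 75 Gy their median was 0.94, with 8 of 10 higher than in controls, and after 65 Gy it was -0.11. The log2 fold change at 75 Gy was 1.17 ± 0.94 for Adipoq, 1.12 ± 1.01 for Cfd and 0.88 ± 1.05 for Car3, and these became 2.77, 2.46 and 2.46 when control library 3137 was left out. The median without it was 2.25 at 75 Gy and 1.32 at 65 Gy, with 9 of 10 members higher at each dose. Adig was higher by 2.47 ± 0.54 at 75 Gy and by 1.87 ± 0.58 at 65 Gy. Cidec differed by -0.74 ± 0.31 and -0.43 ± 0.35. At each dose the CPM of Adig alone lay above the controls without overlap (29.4% of all genes at 75 Gy and 28.2% at 65 Gy), and that of Cidec alone lay below them (27.7% and 28.1%). With any 1 library of the groups compared left out, Adig lay between 2.27 and 2.65 at 75 Gy and between 1.49 and 2.19 at 65 Gy. Both doses share their controls.

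**Figure D4:**
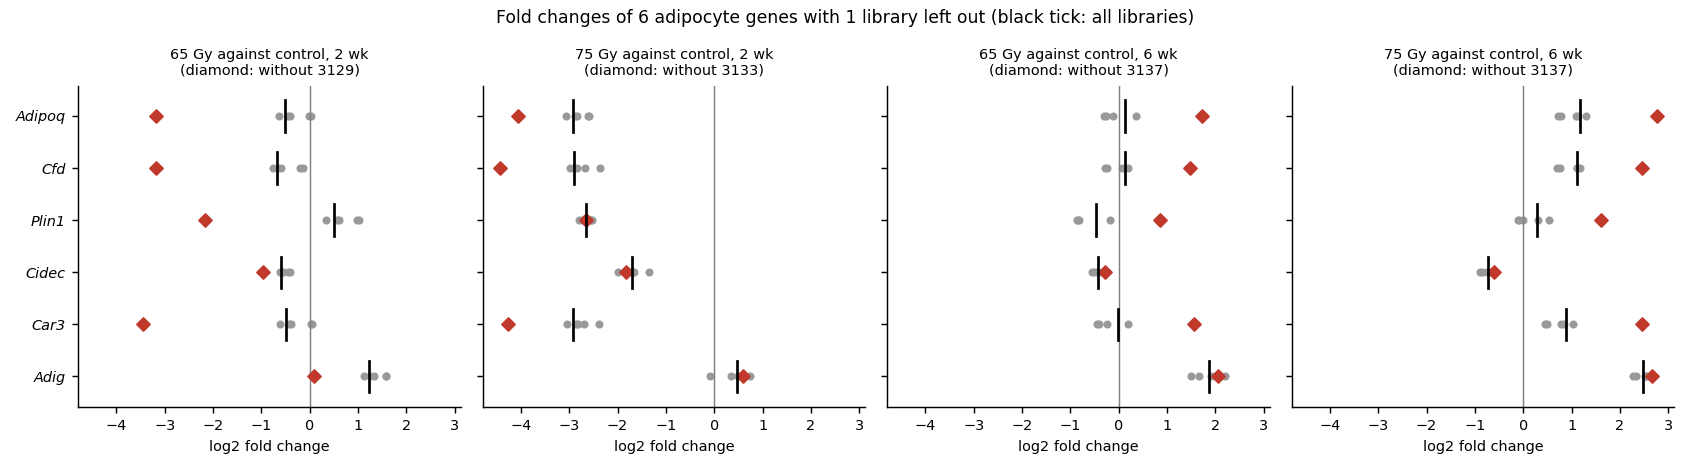
Fitted log2 fold change (x axis) of 6 adipocyte genes (y axis) with 1 library of the compared groups left out (points), for the 4 irradiated groups against controls; black ticks are the values with all libraries, and diamonds the fits without library 3129, 3133 or 3137. Adipoq at 65 Gy and 2 weeks moves from -0.50 to -3.19 without library 3129, and Adipoq at 75 Gy and 6 weeks from 1.17 to 2.77 without 3137, while Cidec moves less than Adipoq.

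Between the doses, all 10 members were lower at 75 Gy than at 65 Gy after 2 weeks, with a median of -2.46. Without library 3129, 5 of 10 were lower and the median was 0.04. The difference then turned from -2.43 (SE 1.02) to 0.26 for Adipoq, from -2.24 to 0.27 for Cfd, from -2.43 to 0.54 for Car3, from -0.77 to 0.38 for Adig and from -3.48 to 0.36 for Aqp7. Lep, Retn, Plin1, Cidec and Ucp1 stayed lower, at -1.36, -0.19, -0.49, -0.73 and -1.35. At 6 weeks 9 of 10 were higher at 75 Gy, with a median of 0.83, and Adipoq differed by 1.04 ± 1.07. None of the 22052 genes was called in these comparisons (0%), while 1570 and 1431 had an unadjusted p below 0.05 by edgeR at 2 and 6 weeks. The CPM of 2 members at 2 weeks was lower at 75 Gy without overlap (5.95% of all genes), and that of 6 members at 6 weeks was higher (15.6%). The controls of 6 weeks had less Adipoq than those of 2 weeks by -1.09 ± 0.94, and less by -2.69 without library 3137.

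The other genes of the white fat pathway were taken as a list of 48, covering storage, lipolysis, uptake, synthesis, regulators and markers. After 75 Gy and 2 weeks 7 of the 48 were called, 5 lower and 2 higher (2.07% and 5.67% of all genes), and their median log2 fold change was -0.13. After 65 Gy and 2 weeks 3 of 48 were called. At 6 weeks 5 of 48 were called at 65 Gy and 7 of 48 at 75 Gy, with medians of -0.03 and 0.03. These shares stand beside the 7.74%, 4.35%, 5.28% and 10.4% of all genes that were called. The median of the 48 genes was within 0.13 of 0 in all 4 comparisons. That of the members was -0.07 and -2.80 at 2 weeks and -0.11 and 0.94 at 6 weeks (65 Gy, then 75 Gy). The members were selected on these same data, so nothing is read from the difference between the lists.

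Among genes of triglyceride storage, Plin4, a perilipin of small lipid droplets, fell after 75 Gy and 2 weeks by 1.77 on the log2 scale (SE 0.55, edgeR adjusted p = 0.0308). Its level was 10.7, 13.8 and 12.6 CPM in controls and 3.22, 5.16 and 2.50 CPM after 75 Gy. It was the 1 storage gene called among 11, and the call was kept in 2 of 6 fits with 1 library of the compared groups left out (lost without 3127, 3128, 3132 or 3134, at -1.75 to -1.56). No gene of lipolysis was called in the 4 comparisons (0 of 7 by edgeR and by DESeq2, with 2, 4, 0 and 4 at an unadjusted p below 0.05 by edgeR). Mgll, the lipase of monoglycerides, changed by -0.39 ± 0.10 (edgeR adjusted p = 0.0109) after 75 Gy and 2 weeks, and Pde3b, a phosphodiesterase through which insulin restrains lipolysis, by 0.51 ± 0.15 (edgeR adjusted p = 0.0203). Both were under the fold change limit.

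Of 6 genes of glucose and fatty acid uptake 3 were called, Lpl, Fabp4 and Cd36, and of 9 genes of fatty acid synthesis 2, each in at least 1 irradiated group. Lpl, the lipase that frees fatty acids from lipoproteins, was 183, 153 and 181 CPM in the 6-week controls, 489.7 and 552 CPM at 65 Gy and 647, 543 and 570.3 CPM at 75 Gy. It rose by 1.60 ± 0.18 and 1.77 ± 0.16 (edgeR adjusted p = 5.02e-05 and 5.40e-06). At 2 weeks it rose after 75 Gy by 1.02 ± 0.16 (edgeR adjusted p = 0.000522), the group in which Adipoq was lowest, and this call was lost without library 3127, 3128 or 3134, at 0.82 to 0.98. Scd1, the desaturase of fatty acid synthesis, rose at 6 weeks by 1.48 ± 0.19 at 65 Gy and 1.26 ± 0.17 at 75 Gy (edgeR adjusted p = 0.000178 and 0.000114). Fabp4, a fatty acid carrier of adipocytes and macrophages, rose after 75 Gy and 6 weeks by 1.88 ± 0.54 (edgeR adjusted p = 0.0136) and by 2.68 without library 3137, and the call was lost without control library 3135 or 3136, at 1.62 and 1.58. Cd36, a fatty acid transporter, fell after 65 Gy and 2 weeks by 1.11 (SE 0.26, edgeR adjusted p = 0.015), and the call was lost without library 3126, 3129 or 3131, at -0.75, -1.02 and -1.10. Mlxipl, the glucose-sensing activator of lipogenesis, fell after 75 Gy and 2 weeks by 1.21 (SE 0.36, edgeR adjusted p = 0.0241), a call lost without library 3127, 3128, 3132 or 3134, at -1.22 to -1.01.

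Of 6 regulators of fat cells, Klf15 was called. It was 38.5, 61.1 and 51.5 CPM in 2-week controls and 22.2, 22.2 and 11.5 CPM after 75 Gy, and it fell by 1.43 (SE 0.29, edgeR adjusted p = 0.00258). At 6 weeks it fell by 1.2 (SE 0.32) at 65 Gy and by 1.13 (SE 0.28) at 75 Gy, with edgeR adjusted p of 0.0238 and 0.00653, and the call at 65 Gy was lost without library 3136, 3137 or 3138, at -1.15, -1.13 and -0.89. Pparg and Cebpa, the main drivers of the adipocyte programme, were not called in these comparisons. Pparg was 11.9, 12.7 and 12.8 CPM in the 6-week controls. At that time it was 20.2 and 20.7 CPM at 65 Gy and 20.0, 23.4 and 23.0 CPM at 75 Gy. These values lay above the controls without overlap, as did those of 28.2% and 29.4% of all genes. Among white fat markers, Sncg, which encodes gamma-synuclein, rose in every irradiated group, by 1.97 ± 0.23, 2.06 ± 0.23, 1.98 ± 0.24 and 2.67 ± 0.23 (65 Gy and 75 Gy at 2 weeks, then at 6 weeks; edgeR adjusted p = 0.000107, 3.73e-05, 0.000131 and 3.14e-06). Slc7a10, an amino acid transporter of white adipocytes, fell after 75 Gy by 1.21 (SE 0.34) at 2 weeks and by 1.5 (SE 0.34) at 6 weeks, and after 65 Gy by 1.44 (SE 0.39) at 6 weeks (edgeR adjusted p = 0.0189, 0.00372 and 0.0251). Npr3, the clearance receptor of natriuretic peptides, fell by 1.79 (SE 0.49) at 65 Gy and 1.5 (SE 0.49) at 75 Gy after 2 weeks and by 1.54 (SE 0.49) at 75 Gy after 6 weeks (edgeR adjusted p = 0.0312, 0.0390 and 0.0238). The 4 calls of Sncg were kept in every fit with 1 library of the compared groups left out. For Slc7a10 the call at 65 Gy was lost in 5 of 5 such fits (-1.47 to -1.41), and that at 75 Gy and 2 weeks without library 3128 or 3134 (-1.14 and -0.79). For Npr3 the call at 65 Gy was kept in 1 of 6 fits, without library 3126 (-1.87), those at 75 Gy were lost at 2 weeks without 3127 or 3128 (-1.58 and -1.31) and at 6 weeks without 3136, 3142 or 3143 (-1.61 to -1.40).

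Of the proteins that adipokines act on or with, Cfb, the complement factor that the protease encoded by Cfd cleaves, rose by 2.20 ± 0.50 after 65 Gy and 2.80 ± 0.51 after 75 Gy at 2 weeks and by 2.00 ± 0.50 after 75 Gy at 6 weeks (edgeR adjusted p = 0.0118, 0.00146 and 0.00633). Library 3134 had 548 CPM of Cfb beside 94.2 and 95.1 CPM in its group, and without it the change at 75 Gy and 2 weeks was 1.43, still called. Cdh13, the T-cadherin that binds adiponectin, fell after 75 Gy by 1.11 (SE 0.17) at 2 weeks and 1.17 (SE 0.17) at 6 weeks (edgeR adjusted p = 0.000368 and 0.000146), and the call at 2 weeks was lost without library 3134, at -0.90. The adiponectin receptor genes Adipor1 and Adipor2 were not called, nor was the leptin receptor gene Lepr, whose log2 fold changes were -0.91, -0.83, -0.78 and -0.86, under the fold change limit.

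Brown fat genes other than Ucp1 were a list of 19, of which 15 passed the filter on low counts. No gene of the 15 was called after 2 weeks at either dose by edgeR, where 4 at 65 Gy and 7 at 75 Gy had an unadjusted p below 0.05. DESeq2 called 1 at each dose, Cidea at 65 Gy and Cox8b at 75 Gy. Cidea was 6.39 CPM in library 3129 and 1.06 and 0.855 CPM in the others of its group, and no DESeq2 fit without 3129 was made. At 6 weeks Dio2, the deiodinase that activates thyroid hormone, rose by 1.21 ± 0.28 at 65 Gy and 1.58 ± 0.26 at 75 Gy (edgeR adjusted p = 0.0106 and 0.000356). It was 1.23, 1.39 and 1.40 CPM in the 6-week controls, 2.92 and 3.28 CPM at 65 Gy and 2.64, 4.94 and 4.49 CPM at 75 Gy, and the call at 65 Gy was lost without 3138 or 3140, the libraries of that group, at 1.30 and 1.14. Whether the effect of a dose differed between 6 and 2 weeks was tested for the listed genes as well. By edgeR 0 of 48 white and 0 of 15 brown fat genes were called for either dose, with 5 and 1 genes at an unadjusted p below 0.05 for 65 Gy and 7 and 6 for 75 Gy, and 0.0136% and 0.254% of all genes were called. DESeq2 called 0 white fat genes for either dose and, among brown fat genes, 0 for 65 Gy and 2 for 75 Gy, Fabp3 and Pdk4.

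Within library 3129 the brown fat genes were looked at one by one, a choice made after Ucp1 had been seen. It was the highest of the 17 libraries for 9 of the 19 genes, for 11 of the 48 white fat genes and for 6 of the 10 members. No other library was highest for more than 3 brown fat genes. The share of all genes that were highest in library 3129 was not determined. Of the 9, Ebf2, Pdk4 and Dio2 were close to the next library, at 1.28, 18.1 and 5.57 CPM against 1.27, 17.5 and 4.94 CPM. Zic1 had 9 counts against at most 5. Otop1, which encodes a proton channel, had 78 counts in library 3129 and at most 10 in any other. Elovl3, an elongase of long fatty acids, had 16 against at most 4, and Cidea, a droplet protein of brown fat, had 6.39 CPM against 0.547 to 2.34. Cox8b was 2.65 CPM against at most 1.89, and Cpt1b 10.02 CPM against at most 7.63. Prdm16, Ppargc1a and Kcnk3 were not raised, with 28.0, 7.04 and 23.8 CPM beside medians of 36.6, 8.73 and 24.6 elsewhere. Lhx8 had 3 counts in 3129 and a maximum of 3 elsewhere.

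**Figure D5:**
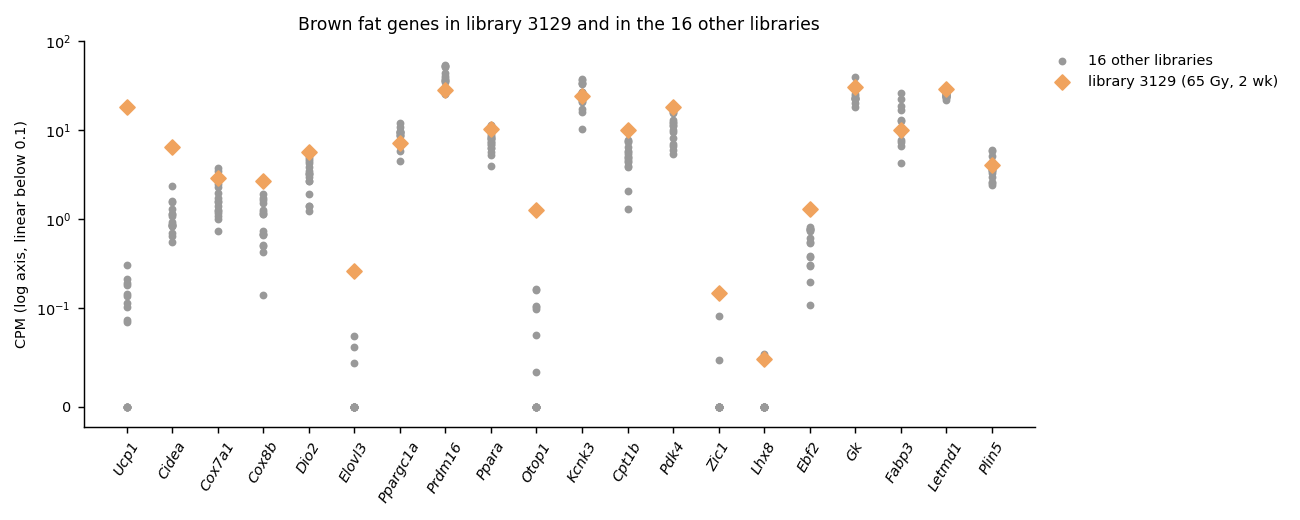
Level in CPM (y axis, logarithmic above 0.1 CPM and linear below) of Ucp1 and the 19 other brown fat genes (x axis) in library 3129 (diamonds) and in the 16 other libraries (points). Ucp1, Cidea, Otop1 and Elovl3 lie well above the other libraries, while Prdm16, Ppargc1a and Kcnk3 lie among them.

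The genes most like the members were ranked by Pearson's r between log2 CPM and the mean of the members, over 17 libraries and after group means were removed. The 10 at the top were Cyp2e1 (r = 0.98), Pck1 (0.94), Plin4 (0.93), Smoc1 (0.91), Aoc3 (0.91), Slc2a4 (0.89), Tmem45b (0.89), Thrsp (0.89), Klhl30 (0.88) and Ebf2 (0.88). Without libraries 3129 and 3137, which were farthest from the median, r ranged from 0.71 to 0.97 for these genes. Cyp2e1, which encodes a cytochrome P450, was 10.7, 12.03 and 12.1 CPM in the 2-week controls, 13.6, 4.41 and 4.19 CPM at 65 Gy and 2.26, 4.97 and 2.83 CPM at 75 Gy. The level at 6 weeks was 6.57, 8.52 and 12.95 CPM in the controls, 9.48 and 12.6 CPM at 65 Gy and 18.7, 15.7 and 18.0 CPM at 75 Gy. Pck1, an enzyme that supplies glycerol phosphate for triglyceride, was 21.3 CPM in library 3129 and at most 5.97 CPM in the others. Of the pathway genes that were called in an irradiated group, Plin4, Fabp4 (0.85) and Mlxipl (0.83) had high r, whereas r was 0.28 for Scd1, 0.15 for Slc7a10, 0.07 for Sncg, -0.10 for Lpl, -0.20 for Npr3, -0.22 for Cd36 and -0.27 for Klf15. Pparg (0.13) and Cebpa (-0.06) were near 0.

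Markers of other tissues that could lie in a lung piece were summed beside the members. The 8 cardiac muscle genes (Myh6, Myl7, Myl4, Sln, Nppa, Tnni3, Tnnt2, Actc1), which are also expressed in the muscle sleeves of mouse pulmonary veins, were detected in every group. Their sum was 333 to 425 CPM in the 2-week controls, 162 to 320.4 CPM at 65 Gy and 74.0 to 277 CPM at 75 Gy. At 6 weeks it was 174 to 686 CPM in the controls, 332 to 373 CPM at 65 Gy and 536 to 743 CPM at 75 Gy, and the median log2 fold change of these genes at 75 Gy was -1.10 at 2 weeks and 1.16 at 6 weeks. Library 3137, high in Adipoq, had the 686 CPM, and libraries 3132 and 3134, low in Adipoq, had 109 and 74.0 CPM. Library 3129, highest in Adipoq, had 320.4 CPM, the highest of its group beside 162 and 281 CPM. This was below the 333 to 425 CPM of the 2-week controls. Library 3133, highest in Adipoq at 75 Gy and 2 weeks, had 277 CPM, the highest of that group. The part of the cardiac muscle genes in the result was not tested.

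The 8 skeletal muscle genes summed to between 4.33 and 16.5 CPM in any library, with Myh4 at 0 in 4 of 6 groups. The sums were 8.66 to 13.6 CPM in the 2-week controls, 4.33 to 8.67 CPM at 65 Gy and 4.40 to 7.57 CPM at 75 Gy. By 6 weeks they were 5.99 to 16.2 CPM in the controls, 8.64 to 8.84 CPM at 65 Gy and 10.7 to 16.5 CPM at 75 Gy. Library 3137 had the 16.2 CPM, and library 3129 had 8.67 CPM. The part of these genes in the members' values, Car3 included, was not tested. The 5 thymocyte genes summed to between 5.95 and 14.7 CPM, the 5 lymph node genes to between 53.7 and 139.9 CPM, and the 5 nerve genes to between 178 and 366 CPM.

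The 6 genes of the mesothelium, the lining of the pleura (Msln, Upk3b, Upk1b, Wt1, Lrrn4, Krt19), summed to between 270.2 and 312 CPM in the 2-week controls, 219 to 229 CPM at 65 Gy and 220 to 238 CPM at 75 Gy. At 6 weeks the sums were 181 to 264 CPM in the controls, 209 to 214 CPM at 65 Gy and 227 to 240 CPM at 75 Gy. Krt19, a keratin of other epithelia too, made up 132 to 197 CPM of each sum, so the fold changes of single genes are given beside it. All 6 genes were lower than in controls after 2 weeks, with medians of -0.79 at 65 Gy and -0.90 at 75 Gy and no call by edgeR (1 and 2 at an unadjusted p below 0.05). After 65 Gy and 6 weeks the median was -1.62, and Upk3b, Wt1 and Lrrn4 were called lower, at -2.91, -2.76 and -2.60 (edgeR adjusted p = 0.0113, 0.0106 and 0.0188). Upk3b was 6.88, 30.4 and 12.97 CPM in those controls, 2.49 and 1.95 CPM at 65 Gy and 13.3, 9.91 and 3.05 CPM at 75 Gy. These calls were lost without 3138 or 3140 (-3.42 to -2.29), and that of Lrrn4 also without 3136 (-2.11). Between the doses at 6 weeks, where 9 of 10 members were higher at 75 Gy, 6 of 6 mesothelial genes were higher too, with a median of 1.32 and no call (3 at an unadjusted p below 0.05 by edgeR). The part of these genes in the members' values was not tested.

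Of the 8 alveolar macrophage genes 7 were in the table. They summed to between 532 and 1222 CPM in the 2-week controls, 725 to 910 CPM at 65 Gy and 882 to 1093 CPM at 75 Gy. After 2 weeks 2 were called higher and 3 lower at 65 Gy, and 2 higher and 2 lower at 75 Gy, with the call of Ear2 at 65 Gy lost without 3126 (-0.86). At 6 weeks the sums were 485 to 644 CPM in controls, 1702 to 2243 CPM at 65 Gy and 1553 to 1794 CPM at 75 Gy, without overlap with the controls. Chil3 alone made up most of these sums at both doses, with 1141 and 1704 CPM at 65 Gy and 1003, 1086 and 1229 CPM at 75 Gy. In the 6-week controls it was 402, 281 and 304 CPM. At that time 5 of 7 were called higher at 65 Gy, and at 75 Gy 3 of 7 were called higher and 1 lower. At 65 Gy the call of Marco was lost without 3138 (1.28) and that of Plet1 without 3136 (0.98). Lpl and Fabp4 were also high at 6 weeks. The 6 genes of lipid-laden macrophages (Gpnmb, Trem2, Spp1, Cd9, Fabp5, Lgals3) summed to between 638 and 990.5 CPM in the 2-week controls, 1996 to 2321 CPM at 65 Gy and 2492 to 3491 CPM at 75 Gy. At 6 weeks they summed to between 662 and 682 CPM in controls, 2545 to 3010.1 CPM at 65 Gy and 3330.1 to 4080.2 CPM at 75 Gy. These sums lay above those of the controls in all 4 irradiated groups. Adig overlapped the controls at 2 weeks, although 1.57 CPM in library 3129 and 0.718 CPM in 3132 were above every control of that time. At 6 weeks it did not overlap them. The part of macrophage genes in the values of Adig, Lpl and Fabp4 was not tested.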

How the data were processed

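Total RNA from lung, taken from the lesions where lungs were irradiated, was sequenced from stranded mRNA libraries, and 17 libraries in 6 groups were used here. For alignment to GRCm38.p6 the authors used HISAT2, with StringTie for expression, and the values deposited are raw gene counts, as whole numbers that were not normalized. How StringTie output became counts, and whether counting used strand, is not given in the sources used here. A further 65 Gy library of 6 weeks, listed in the paper, was absent from the counts used here.

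The 10 members, the lists and the tests were chosen with earlier results of these data known. All libraries were fitted with edgeR 4.0.16 in R 4.3.3 (low counts removed by filterByExpr, min.count 10 and min.total.count 15, 22052 genes kept; TMM factors; quasi-likelihood F test; 1 coefficient per group). Adjusted p-values follow Benjamini and Hochberg over all genes kept. CPM used TMM factors, lengths per kilobase were those of the union of exons in the GENCODE annotation, and log2 CPM for likeness used a prior count of 2. Members were given no p-value and no call. All 10 passed the filter, although Aqp7 reached its level of 0.174 CPM in 6 libraries and Ucp1 in 5.

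Named were the members, up to 3 called genes per list by smallest p or, with none called, 2 by p after 75 Gy and 2 weeks, and the 10 genes most like the members. Of the 140 genes in the lists 139 were in the table. Alternatives were other filters, RLE and upper-quartile factors, DESeq2 1.42.0, only the groups compared, no fold change limit and leaving out each library. The fit was tested on simulated data.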

Additional observations from a re-analysis of the deposited data

Results flagged for a closer look

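Chosen because every 75 Gy library lay below the mean of its controls at 2 weeks and above it at 6 weeks, 11 genes are listed here. The difference between the times was not tested for these genes, and control library 3137 lay above most 75 Gy values at 6 weeks for several of them. Adipoq averaged 0.715 CPM after 75 Gy and 2 weeks (controls 5.56) and 5.88 after 75 Gy and 6 weeks (controls 2.61). Cfd averaged 3.84 CPM (controls 29.2) and 32.0 (controls 14.7), Car3 4.77 CPM (controls 36.3) and 40.4 (controls 22.0), and Retn 0.128 CPM (controls 1.26) and 1.88 (controls 0.946).

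Among the genes most like the members, Cyp2e1 averaged 3.35 CPM after 75 Gy and 2 weeks (controls 11.6) and 17.5 at 6 weeks (controls 9.35), Pck1 0.166 CPM (controls 2.62) and 3.62 (controls 2.62), and Tmem45b 0.052 CPM (controls 0.889) and 1.0 (controls 0.497). Slc2a4 averaged 2.16 CPM (controls 4.55) and 6.41 (controls 4.15), Thrsp 1.84 CPM (controls 4.55) and 4.17 (controls 3.48), and Smoc1 1.83 CPM (controls 3.39) and 3.56 (controls 3.23). For Klhl30 the averages were 0.459 CPM (controls 0.638) and 0.693 (controls 0.568). These genes were chosen for their likeness to the members, so their pattern is no separate support.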

How the results depend on the processing

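The counts of called white fat genes (3, 7, 5 and 7 of 48 for 65 Gy and 75 Gy at 2 weeks, then at 6 weeks) and brown fat genes (0, 0, 1 and 1) stayed within 1.5 times under other filters, RLE or upper-quartile factors and, for white fat genes, DESeq2. With DESeq2 the brown fat counts were 1, 1, 1 and 2, and with only the groups compared that of 75 Gy at 6 weeks was 2. With adjusted p alone the white fat counts were 7, 17, 12 and 22 and the brown fat counts 1, 3, 2 and 3. With 1 library left out, white fat counts ranged from 2 to 3, 3 to 11, 3 to 6 and 5 to 8, and brown fat counts from 0 to 1, 0 to 1, 0 to 1 and 1 to 4. For 75 Gy at 2 weeks the white fat count was 3 without library 3128, 4 without 3127 or 3134 and 11 without 3129, and for 65 Gy at 6 weeks it was 3 without 3136 or 3138. The brown fat count became 1 at 65 Gy and 2 weeks without 3126, 3130 or 3131 and at 75 Gy and 2 weeks without 3126, 3129, 3130, 3132 or 3133. At 6 weeks it became 0 at 65 Gy without 3138 or 3140, and at 75 Gy 4 without 3137, 3 without 3141 and 2 without 3129. The causes were not tested.

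Of the members' fold changes none moved by more than the gene's SD of log2 CPM within groups under other filters, factors, tools or samples. That SD ran from 0.45 for Cidec to 2.29 for Ucp1, a wide limit for genes chosen for their spread. These settings gave 70 values each, except 42 with at least 10 counts in every library and 59 with only the groups compared. The sign turned for 1 value, Car3 at 65 Gy and 6 weeks, from -0.01 to at most 0.01. With 1 library left out 33 of 1190 moved, 18 of them without library 3129, 9 without 3137, 4 without 3133 and 2 without 3140. The 1190 include comparisons that do not hold the library left out, so the share that moved is no measure of stability. Library 3129 is in the comparisons of 65 Gy with controls and of the doses at 2 weeks only. No paired analysis was possible because library numbers run on through the groups without repeating. Lep, Aqp7, Retn and Ucp1 had 0 counts in 2 to 6 libraries, so depth limits their fold changes, and with 2 or 3 libraries per group a high library decides a group mean.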
